A study of Mus musculus with 2 samples.

Results

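Plasma cells were examined in single-cell RNA sequencing of mouse colon lamina propria, in the 2 libraries titled Runx3_fl and Runx3. Among barcodes with 200 to 6000 detected genes and at most 15% mitochondrial UMIs (unique molecular identifiers, each standing for 1 captured RNA molecule), plasma cells were selected on their own counts as those with at least 10 Jchain, 2 Mzb1 and 1 Derl3 UMIs and with 0 UMIs of Siglech, Csf1r and Cd3e. The rule gave 334 plasma cells among 20052 kept cells. Of these, 259 were among 11885 kept cells of the library labelled Runx3_fl and 75 among 8167 kept cells of the library labelled Runx3.

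The study set RUNX3 fl/fl control mice against RUNX3 fl/fl-Lyz2-Cre mice, in which Cre is driven from Lyz2, a gene of myeloid cells and not of the plasma cell lineage. The titles do not say which library carried Cre, so both are called by their titles here and no genotype is assigned. Each library came from a pool of mice described as male and 8 weeks old, and no treatment is stated for either. Immune cells were enriched on a Percoll gradient, stained and sorted with removal of 7-AAD-positive dead cells, and the labels give the sorted fraction as cd11b+. Against that description, 116 of the 259 plasma cells of Runx3_fl carried Xist RNA without Y-linked RNA, and 0 of 75 in Runx3 did, so some results are also given for the Xist and Y-linked cells apart. With 1 library per group no difference between the libraries could be tested. A difference between the groups and a difference between these particular libraries cannot be told apart, and intervals below are 95% intervals that cover counting error only, except that a range beside a list's median is the median of its members' bounds.

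Plasma cells are the end stage of the B lineage and secrete antibody. In the gut most of them make IgA, whose dimers are joined by the J chain, the product of Jchain (chromosome 5, 88519809 to 88527891, GRCm38), and are carried across the epithelium into the lumen. Antibody chains are made on the rough endoplasmic reticulum (ER), where Mzb1 and other chaperones fold them, Derl3 takes part in the removal of misfolded chains, and the transcription factor Xbp1 keeps up the folding machinery. Cells recently formed from dividing B cells, often called plasmablasts, still divide, whereas mature plasma cells do not.

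The label was checked against markers. Xbp1, which the rule did not use, had a UMI in 100% of plasma cells of both libraries, with a median of 28 UMIs per cell in Runx3_fl and 25 in Runx3, against 44.7% and 37.6% of the other kept cells. Igha, the IgA heavy chain gene (chromosome 12, 113254830 to 113260236), had a median of 1079 UMIs per plasma cell in Runx3_fl and 4275 in Runx3. T-marker cells, kept cells with 3 or more UMIs of Cd3d, Cd3g and Trac together, should lack Igha and carried a mean of 10.8 and 25.6 Igha UMIs. Sdc1, the surface proteoglycan CD138, had a median of 3 UMIs per plasma cell in Runx3_fl and 5 in Runx3. Tnfrsf17, the survival receptor BCMA, was detected in 82.2% and 78.7% of plasma cells and in 0.714% and 0.680% of other kept cells. Of the B cell markers, Ms4a1 stood at 5.19 CPM in Runx3_fl and 5.83 CPM in Runx3 and Pax5 at 0.162 and 5.83 CPM, with Fcer2a and Cd22 at 0 in Runx3_fl. CPM here is the UMIs of a gene per 1000000 UMIs of all genes other than the antibody chain genes, summed over the plasma cells of a library, so that the antibody load itself does not lower every other gene. Itgam, which encodes CD11b, the marker named for the sort, had a UMI in 42.5% of plasma cells in Runx3_fl and 9.33% in Runx3. With every cell brought to 5000 UMIs outside the antibody genes, the shares were 18.8% (14.1 to 24.0) and 3.15% (0.348 to 9.94) in plasma cells. They were 19.3% (17.9 to 20.6) and 16.1% (13.0 to 19.5) in T-marker cells. In B-marker cells, those with 3 or more UMIs of the B cell markers, they were 10.3% (4.80 to 17.3) and 6.34% (4.69 to 8.49). Plasma cells of Runx3_fl thus lay near T-marker cells and those of Runx3 below them. Against B-marker cells the intervals overlapped in both libraries.

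Cells close to the rule's limits were few for Jchain and many for Derl3. In Runx3_fl 0 kept cells had 5 to 9 Jchain UMIs with the other limits met, while 60 plasma cells held a single Derl3 UMI and 34 further cells missed the rule only for having none. The corresponding numbers in Runx3 were 19 and 25. A further 46 and 20 cells met the marker limits but held a UMI of Siglech, Csf1r or Cd3e, of which 35 and 2 did so for Cd3e alone. Of barcodes found in both libraries, which numbered 37, 1 was a plasma cell in Runx3_fl.

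Plasma cells made up 2.18% (1.92 to 2.46) of kept cells in Runx3_fl and 0.918% (0.723 to 1.15) in Runx3. The sort sets which cells enter a library, so this share is not a share of the tissue. It also rests on the rule's count limits. Kept cells with at least 10 Jchain UMIs, whatever their other genes, numbered 362 of 11885 in Runx3_fl and 194 of 8167 in Runx3. Under the rule the numbers were 259 and 75, so the libraries lay closer together on Jchain alone. The looser marker limits among the processing alternatives still asked for 1 Derl3 UMI and so do not cover this. Cells that missed the rule only for Mzb1 numbered 2 and 9. Those that missed it only for Derl3 had medians of 21070 and 8385 UMIs. The part of these limits in the difference in share was not tested. Plasma cells had a median of 27161 UMIs in Runx3_fl and 25655 in Runx3, and outside the antibody genes 23385 and 15109. They were deeper than the other kept cells of their libraries, whose medians were 9370.5 and 5683 UMIs. The rule asks for absolute counts and so favours deep cells. All kept cells with at least 10 Jchain UMIs had medians of 26834 and 16186.5 UMIs.

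Promoter sequences were searched for a known element of folding genes. Genes under Xbp1 and Atf6 often carry an ER stress element (ERSE), CCAAT followed after 9 unspecified bases by CCACG. Among the 30 genes of a list of 35 ER folding genes that had a RefSeq promoter sequence (250 bases before to 50 after the start, GRCm38.p6), 8 held the ERSE on either strand, or 26.7%, against 37 of 27025 genes with a promoter in the table, or 0.137%. The shorter ERSE-II, ATTGG and CCACG with 1 base between them, was in 2 of the 30 (6.67%) and in 12 of all (0.0444%). A match describes letters only. These sites are shown because the genes that hold them act in ER folding or in the removal of misfolded proteins, and Hspa5, Hsp90b1, Creld2 and Canx among them are described below. The element is in capitals with 5 bases on each side, read on the strand that carries it.
Hspa5, chr2:34772025-34772043: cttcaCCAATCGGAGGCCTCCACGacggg
Hsp90b1, chr10:86705638-86705656: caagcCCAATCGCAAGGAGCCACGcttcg
Hsp90b1, chr10:86705533-86705551: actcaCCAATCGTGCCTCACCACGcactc
Calr, chr8:84847075-84847093: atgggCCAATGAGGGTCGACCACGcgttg
Canx, chr11:50325800-50325818: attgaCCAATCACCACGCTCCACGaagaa
Creld2, chr15:88819520-88819538: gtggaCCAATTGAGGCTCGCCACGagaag
Dnajc3, chr14:118937827-118937845: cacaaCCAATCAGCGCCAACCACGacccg
Pdia6, chr12:17266491-17266509: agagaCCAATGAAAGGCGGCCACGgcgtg
Syvn1, chr19:6046532-6046550: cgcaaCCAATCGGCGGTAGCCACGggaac
Herpud1 (ERSE-II), chr8:94386377-94386387: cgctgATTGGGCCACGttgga
Dnajb11 (ERSE-II), chr16:22857852-22857862: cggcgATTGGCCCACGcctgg

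Creld2 and Canx show the element in its setting, in the 250 bases before each gene's start and in the gene's own direction. In Canx the element reads along the gene. In Creld2 it lies on the opposite strand, so the capitals show its reverse complement.
Creld2, chr15:88819396-88819645, plus strand: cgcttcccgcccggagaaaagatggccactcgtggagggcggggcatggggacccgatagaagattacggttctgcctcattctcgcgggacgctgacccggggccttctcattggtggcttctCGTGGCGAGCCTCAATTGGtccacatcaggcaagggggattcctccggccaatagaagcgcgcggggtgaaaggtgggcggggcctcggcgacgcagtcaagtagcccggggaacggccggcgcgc
Canx, chr11:50325674-50325923, minus strand: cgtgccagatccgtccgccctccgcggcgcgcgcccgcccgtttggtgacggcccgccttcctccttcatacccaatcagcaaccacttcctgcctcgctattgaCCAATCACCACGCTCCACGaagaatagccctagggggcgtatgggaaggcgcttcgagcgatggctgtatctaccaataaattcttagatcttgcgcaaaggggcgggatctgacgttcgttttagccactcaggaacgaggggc

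IgA cells were the majority in both libraries, and IgG cells were mostly found in Runx3_fl. Each cell was given the heavy chain class that held over 50% of its heavy chain UMIs, a measure the rule did not use. In Runx3_fl 203 of 259 cells were IgA, or 78.4% (72.9 to 83.2), and in Runx3 72 of 75, or 96.0% (88.8 to 99.2). IgG cells numbered 53 in Runx3_fl, or 20.5% (15.7 to 25.9), and 2 in Runx3, or 2.67% (0.325 to 9.30). Among cells with Y-linked and without Xist RNA the IgA shares were 71.2% in Runx3_fl and 96.4% in Runx3. Against the 96% of Runx3, the Xist cells of Runx3_fl held 87.9%, a difference of 8.07 percentage points (-0.92 to 16.1) whose interval includes 0, where all cells gave 17.6 (8.90 to 24.0). By subclass, Runx3_fl held 23 IgG2b, 26 IgG2c, 3 IgG3 and 1 IgG1 cells, and both IgG cells of Runx3 were IgG2b. IgG2c was found in 0 of 75 cells of Runx3, where 3 counts would be a share of 4% and the exact 95% upper limit is 4.80%. IgM cells numbered 3 and 1, and no cell was IgD or IgE. The classes were cleanly separated within cells. The assigned class held a median of 99.9% of heavy chain UMIs in IgA cells of Runx3_fl and 99.98% in those of Runx3, and 97.0% in IgG2b cells of Runx3_fl. IgG cells of Runx3_fl had a median of 8 Igha UMIs. The other kept cells of that library had a median of 1 and a mean of 9.25, and T-marker cells a mean of 10.8. The median of 8 was thus above that of other kept cells, and a median is not comparable with the means. IgG2b and IgG2c are close in sequence, and reads shared between them could blur the line between those subclasses. Jchain, which the rule required in every cell, had a median of 421 UMIs in IgA and 279 in IgG cells of Runx3_fl.

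**Figure D1:**
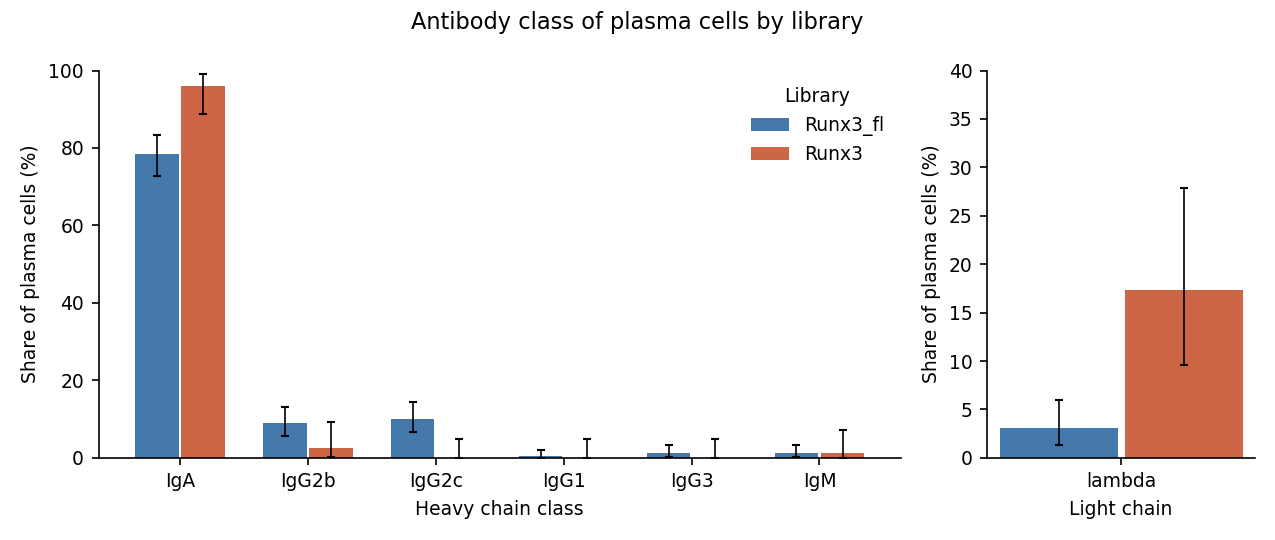
Share of plasma cells (%, linear axis from 0) assigned to each heavy chain class (left) and to lambda light chain (right), for the Runx3_fl library (blue, 259 cells) and the Runx3 library (orange, 75 cells); bars are single-library shares and lines are 95% Clopper-Pearson counting intervals. IgA stands at 78.4% and 96.0%, and lambda at 3.09% and 17.3%.

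Light chains also differed. Lambda cells, those with over 50% of constant light chain UMIs from Iglc1, Iglc2 and Iglc3, were 8 of 259 in Runx3_fl, or 3.09% (1.34 to 5.995), and 13 of 75 in Runx3, or 17.3% (9.57 to 27.8). Kappa cells made up the rest, 251 and 62.

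The kappa variable genes were more evenly used in Runx3_fl. Each B lineage cell joins 1 kappa variable gene in its light chain, so cells that share heavy and light variable genes can come from 1 clone, although these data do not read the junction that would show it. An Igkv gene was assigned to 235 cells of Runx3_fl and 58 of Runx3, where over 50% of at least 5 Igkv UMIs came from it. In Runx3_fl 60 Igkv genes were seen and Igkv10-96 led with 19 cells, or 8.09% (4.94 to 12.3). In Runx3 25 were seen, of which 21 also occurred in Runx3_fl, and Igkv1-117 led with 17 cells, or 29.3% (18.1 to 42.7), all of them IgA. Igkv1-117 held 18 cells, or 7.66% (4.60 to 11.8), of Runx3_fl. The effective number of Igkv genes, the exponential of the Shannon entropy at 58 cells in each library, was 26.2 in Runx3_fl and 15.6 in Runx3. Among the 44 and 48 cells without an Mki67 UMI, at a smaller equal number of cells, the effective number in Runx3 differed from that in Runx3_fl by only -1.88, a subset chosen after seeing the data. For heavy chains the effective number at 62 cells was 27.1 and 21.0, with Ighv1-81 leading in Runx3_fl (21 of 205 cells) and Ighv7-3 in Runx3 (10 of 62). Variable genes of a family are near copies of each other, so assignments between close members are uncertain.

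**Figure D2:**
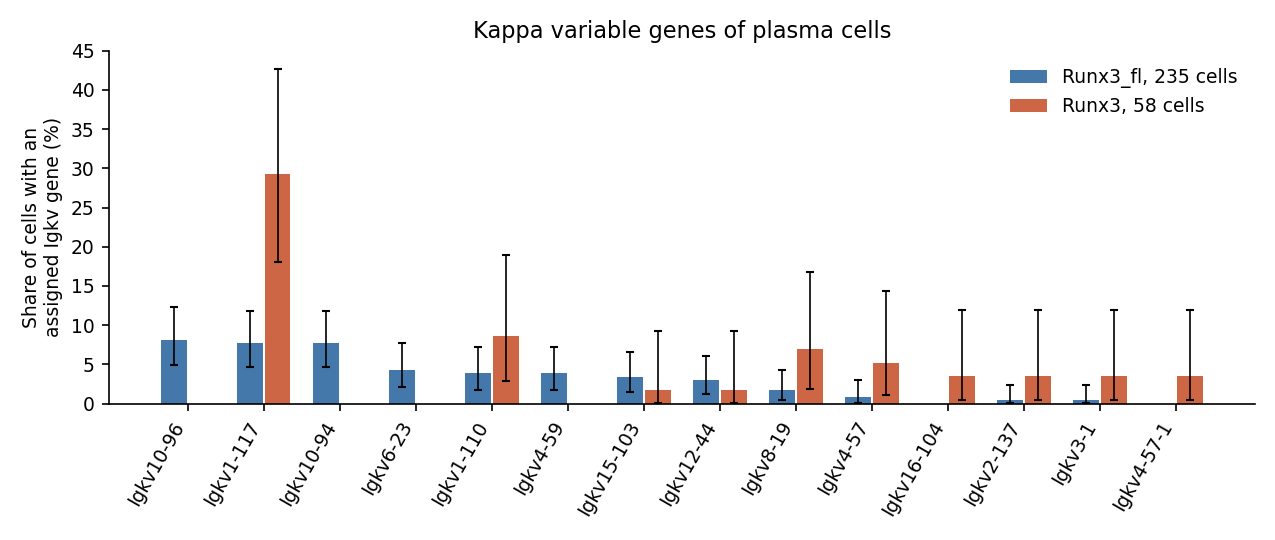
Share of cells (%, from 0) carrying each Igkv gene among cells with an assigned one, for the 8 most frequent genes of either library, in Runx3_fl (blue, 235 cells) and Runx3 (orange, 58 cells), with 95% Clopper-Pearson counting intervals. Igkv1-117 reaches 29.3% in Runx3 and 7.66% in Runx3_fl.

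The pair Ighv1-81 with Igkv1-117 was the most frequent in both libraries, with 7 cells in Runx3_fl (6 IgA, 1 IgG2b) and 5 in Runx3 (all IgA). Pairs seen in at least 2 cells held 40.7% of the 194 cells with a pair in Runx3_fl and 38.3% of the 47 in Runx3. Such a share grows with the number of cells and was not brought to equal numbers, so these 2 shares cannot be compared. In Runx3_fl some pairs spanned classes. Ighv1-82 with Igkv4-91 was found in 2 IgA, 1 IgG2b and 1 IgG2c cells, and Ighv1-82 with Igkv19-93 in 1 IgA, 2 IgG2c and 1 IgM cells. Some pairs held both Xist and Y-linked cells, such as Ighv9-2 with Igkv15-103 and Ighv5-12 with Igkv1-117, each with 1 Xist and 2 Y-linked cells. Others held 1 set only, such as Ighv1-34 with Igkv3-2 in 4 Xist cells. A shared pair therefore does not by itself show 1 clone.

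Antibody chains took a larger share of the RNA of plasma cells in Runx3. They made up 15.1% of plasma cell UMIs in Runx3_fl and 40.2% in Runx3. By cell, the share ran from 3.58% through a median of 14.1% to 56.5% in Runx3_fl, and from 11.9% through 41.0% to 57.7% in Runx3, so the ranges overlap and the medians lie far apart. Igha alone was 3.98% of UMIs in Runx3_fl and 16.7% in Runx3, and Igkc, the kappa constant gene, 9.25% and 19.2%. Jchain was 1.58% and 4.11%. In the other kept cells, which include B-marker cells and cells that just missed the rule, antibody chains were 0.311% and 0.919% of UMIs, and in T-marker cells, which should make none, 0.296% and 0.532%.

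Cells with Mki67 RNA were the majority of plasma cells in Runx3_fl and a minority in Runx3. Mki67, a marker of dividing cells, had 0, 10 and 81 UMIs per cell at the lowest, median and highest cell of Runx3_fl, and 0, 0 and 21 in Runx3. Summed, it stood at 572 CPM in Runx3_fl and 140 in Runx3, a log2 ratio of Runx3 over Runx3_fl of -2.02 (-2.26 to -1.81). When every cell was thinned to 5000 UMIs outside the antibody genes, leaving out 2 and 5 shallower cells, 69.6% of plasma cells in Runx3_fl and 22.1% in Runx3 kept an Mki67 UMI, against 83.0% and 36% without thinning. The same thinned shares were 38.2% and 8.53% in T-marker cells and 7.79% and 3.03% in B-marker cells, so Mki67 was also lower in Runx3 outside the plasma cells. Top2a, the DNA topoisomerase of dividing cells, was kept by 58.9% and 21.8% of plasma cells.

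Within each library, cells with many cell cycle UMIs had a lower median antibody share than the other plasma cells. With a limit of 20 UMIs of the cell cycle list per 10000 UMIs outside the antibody genes, chosen after the values were seen, 169 cells of Runx3_fl were at or above it and only 1 of them reached an antibody share of 30%. Of the 90 cells below the limit, 20 did. In Runx3 10 cells were at or above the limit, 5 of which reached 30%, and 58 of the 65 below it did. The difference between libraries was present on both sides, with median antibody shares of 12.4% and 29.4% at or above the limit and 19.7% and 43.1% below it.

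**Figure D3:**
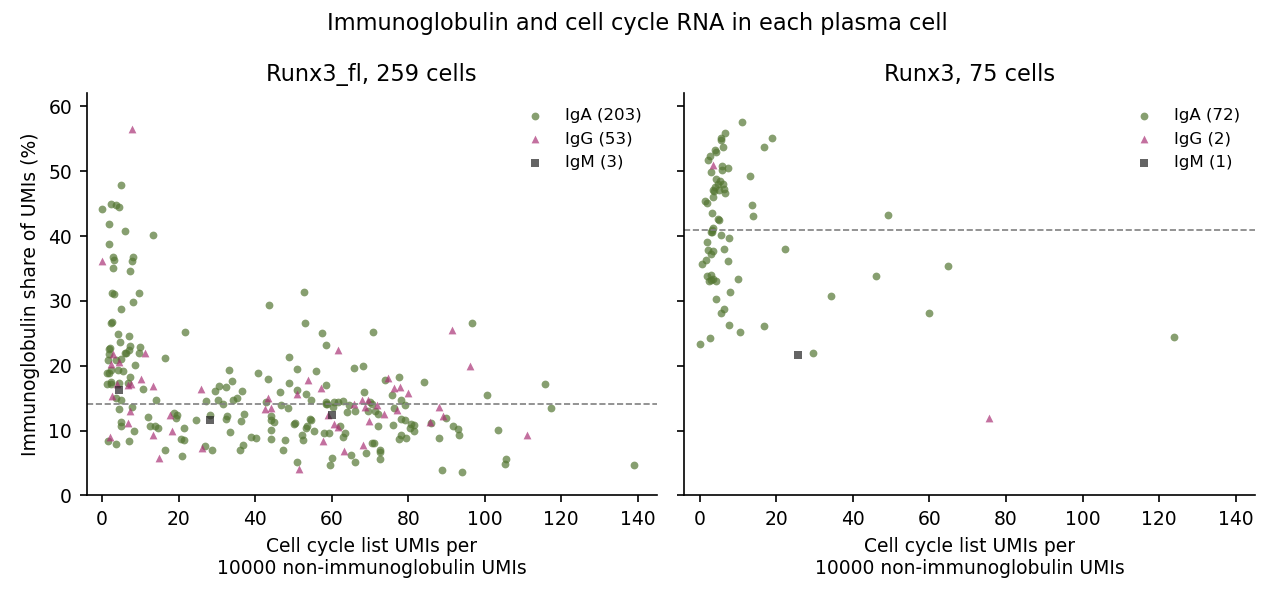
Each point is 1 plasma cell: UMIs of the 16 cell cycle genes per 10000 UMIs outside the antibody genes (x axis) against the antibody share of all UMIs in percent (y axis), for Runx3_fl (left, 259 cells) and Runx3 (right, 75 cells), with the heavy chain class by colour and shape and the library's median share as a dashed line. Dividing cells of Runx3_fl lie at low antibody shares, and most cells of Runx3 lie at the left and above 30%.

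Across genes, 3724 were compared between the plasma cells of the libraries, those at 50 CPM or more and with a UMI in at least 10% of plasma cells in either library. The median log2 ratio was -0.25, and 345 genes were at 1 or more (9.26%) and 479 at -1 or less (12.9%). With the median gene set to 0 the split turned, with 488 higher and 275 lower, and per 1000000 of all UMIs, where every log2 ratio shifts by -0.51, it was 106 and 1174. These limits call a gene higher or lower here, with 1 CPM added on both sides, and with no test. Each list below is read against these shares and this median.

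Immediate early genes, switched on within minutes of a stimulus, were higher in Runx3 in 13 of the 14 compared, with a median log2 ratio of 2.48 (2.29 to 2.77). Fos stood at 122 CPM in Runx3_fl and 1712 in Runx3, a log2 ratio of 3.80. Egr1 stood at 33.6 and 576 CPM (4.06), Dusp1, a phosphatase that switches off MAP kinases, at 69.8 and 918 (3.70), and Junb at 108 and 938 (3.11). The exception was Btg2 at 79.7 and 135 CPM (0.75). Thinned to equal depth, Fos was kept by 31.8% of plasma cells in Runx3_fl and 83.8% in Runx3, and Egr1 by 10.6% and 61.8%. The other cells of the libraries leaned the same way: the list's median was 0.94 in the other kept cells, 1.25 in T-marker cells and 0.31 in B-marker cells.

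Heat shock genes split. Of 10 compared, 3 were higher and 1 lower, with a median of 0.73. Hspa1a (chromosome 17, 34969190 to 34972156), an inducible Hsp70, stood at 50.6 CPM in Runx3_fl and 1214 in Runx3 (4.56), and its near copy Hspa1b, between which reads are hard to assign, at 38.8 and 893 (4.49). Dnajb1, an Hsp70 partner, stood at 67.7 and 269 (1.98). Hspd1, the mitochondrial chaperonin, was lower, at 354 and 158 CPM (-1.16). Hspa1a was also higher in T-marker cells, at 47.4 and 927 CPM, and in the other kept cells as a whole, at 127 and 1242.

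The cell cycle list was lower in 14 of 15 compared, with a median of -1.77 (-2.26 to -1.38) in plasma cells. Its median was -1.48 in other kept cells, -2.48 in T-marker cells and -0.19 in B-marker cells, so T-marker cells differed more than plasma cells. Hmgb2, a chromatin protein of dividing cells, stood at 1322 CPM in Runx3_fl and 282 in Runx3 (-2.23), Mcm3, part of the replicative helicase, at 110 and 26.7 (-2.01), and Birc5 at 181 and 54.2 (-1.72). Pcna, the replication clamp, did not pass the limit, at 328 and 217 (-0.60).

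Interferon response genes were higher in 5 of 8 compared, with a median of 1.35. Ifi27l2a stood at 359 and 3826 CPM (3.41), Bst2, which tethers virus particles, at 323 and 1703 (2.39), and Irf7, a transcription factor of the interferon response, at 5.03 and 92.5 (3.95), with 27.0% of its UMIs in Runx3 from 1 cell. The list's median was 0.88 in the other kept cells, 1.12 in T-marker cells and 0.37 in B-marker cells. Irf7 itself was also higher there, with log2 ratios of 2.84, 3.29 and 2.41.

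**Figure D4:**
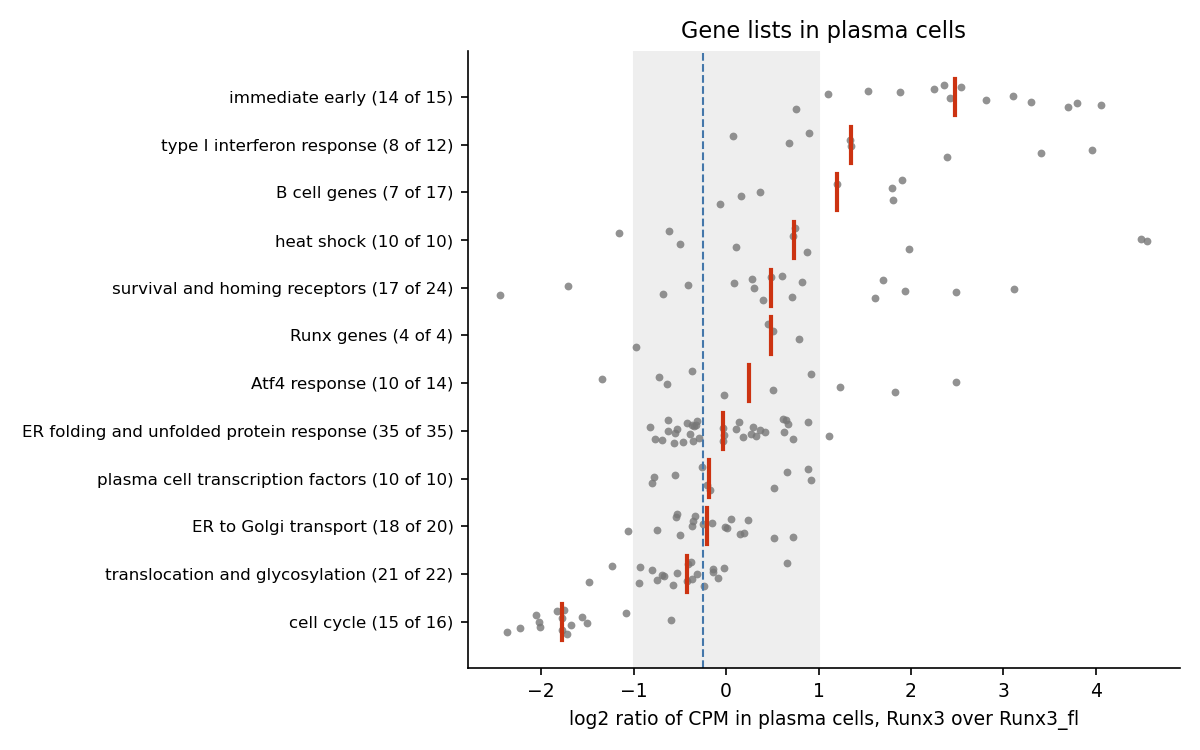
Log2 ratio of CPM in plasma cells, Runx3 over Runx3_fl (x axis), for every compared member of each gene list (grey points, numbers compared of all members in the labels); red bars are list medians, the dashed blue line is the median of all 3724 genes (-0.25), and the shaded band marks ratios between -1 and 1. The immediate early list lies to the right (median 2.48), the cell cycle list to the left (median -1.77), and the ER folding list near 0.

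The secretory machinery differed little between the libraries, although the antibody share did. Of the 35 ER folding genes, 1 was higher and 0 lower, with a median of -0.04 (-0.29 to 0.14). Hspa5, the ER Hsp70 BiP, stood at 2780 CPM in Runx3_fl and 3591 in Runx3 (0.37), and Hsp90b1, the ER Hsp90, at 8076 and 5233 (-0.63). Creld2 stood at 591 and 461 CPM (-0.36) and Canx at 513 and 373 (-0.46). Edem2, which marks misfolded glycoproteins for removal, was the 1 higher gene, at 224 and 485 CPM (1.11). In the translocation and glycosylation list, 0 of 21 were higher and 2 lower, with a median of -0.43: Rpn1 at 822 and 293 CPM (-1.48) and Ssr2 at 484 and 205 (-1.24). The ER to Golgi list had 0 higher and 1 lower of 18, Kdelr2 at 250 and 119 CPM (-1.06). The sign of the ER folding median rests on the scale: it was 0.21 with the median gene set to 0 and -0.54 per 1000000 of all UMIs.

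Within each library the same machinery stood above the other cells. Plasma cells exceeded other kept cells by a log2 ratio of 1 or more for 33 of 35 ER folding genes in Runx3_fl, where 22% of all 3724 genes did so, and for 31 of 35 in Runx3, where 17.9% did so. The cells were chosen by their counts, so these are descriptions. Creld2 was 37.3 and 22.5 CPM in the other kept cells, and Txndc5, a disulfide isomerase, 44.2 and 55.4 CPM against 1080 and 1660 in plasma cells. Beyond the rule's own genes, the largest ratios in both libraries were for Fkbp11, 5830418P13Rik, Ccr10, Tnfrsf17, Sgpp2, Gm30211 and Gpm6a. Gm30211 (chromosome 6, 70719074 to 70740554) spans Igkc (70726435 to 70726966) on the same strand and was not counted among the antibody genes. Whether its UMIs are separate from those of Igkc was not tested.

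The transcription factors that hold the plasma cell state were within the limits in all 10 cases. Xbp1 stood at 1406 CPM in Runx3_fl and 2224 in Runx3 (0.66), Irf4 at 153 and 288 (0.91), and Prdm1, which encodes Blimp-1 and shuts down the B cell programme, at 166 and 113 (-0.55). Pou2af1, an octamer co-activator, stood at 639 and 370 (-0.79). The B cell list had 7 of 17 members compared, of which 4 were higher, all of antigen presentation: Cd74 at 1035 and 3616 CPM (1.80), H2-Aa at 119 and 414 (1.79), H2-Eb1 at 127 and 477 (1.90) and H2-Ab1 at 231 and 530 (1.19). For H2-Aa 1 cell of Runx3 held 32.0% of the UMIs. All 4 were also higher in T-marker cells of Runx3, where Cd74 stood at 826 and 3124 CPM (1.92) and H2-Aa at 447 and 1391 (1.64), and the part of this in the plasma cell values was not tested. Ebf1 and Cd79b stood at 43.0 and 55.8 (0.37) and at 158 and 178 CPM (0.16).

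Receptors for survival and homing showed a mixed pattern. Of 17 compared, 5 were higher and 2 lower. Il5ra, the interleukin 5 receptor, stood at 6.33 and 62.5 CPM (3.12), with a UMI in 5.41% and 24.0% of plasma cells. Cd93, needed for plasma cell upkeep in bone marrow, stood at 10.1 and 60.8 (2.48), Cxcr4, the receptor for Cxcl12, at 21.4 and 85.0 (1.94), and Sdc1 at 126 and 411 (1.70). Bcl2l1, which encodes the survival protein Bcl-xL, stood at 18.7 and 59.2 (1.61), with 28.2% of its UMIs in Runx3 from 1 cell. Ccr9, a homing receptor for the small intestine, was lower, at 131 and 23.3 CPM (-2.44), and Itga4, the integrin chain that binds gut vessels together with Itgb7, at 903 and 275 (-1.71). Ccr10, the homing receptor of IgA cells in the colon, stood at 146 and 241 (0.72), and Itgb7 at 136 and 144 (0.08). Thinned, Ccr9 was kept by 34.6% and 8.25% of plasma cells. Several of these leaned the same way in the other kept cells, where the log2 ratio was -1.74 for Itga4, -0.91 for Ccr9, 1.54 for Cd93, 1.23 for Sdc1, 1.16 for Cxcr4 and 1.15 for Il5ra. Bcl2l1 went the other way there, at -1.47.

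In the list of genes that answer to Atf4, 3 of 10 were higher and 1 lower. Ppp1r15a, the phosphatase subunit that restores translation after stress, stood at 98.5 and 558 CPM (2.49), Atf3 at 63.8 and 229 (1.83), Ddit3, which encodes CHOP, at 48.7 and 116 (1.23), and the serine synthesis gene Psat1 at 101 and 39.2 (-1.34). Of effector genes, Il10 stood at 33.8 and 58.3 CPM (0.77) and Cd274, which encodes PD-L1, at 1003 and 426 (-1.23). Runx3 stood at 67.7 CPM in Runx3_fl and 93.3 in Runx3 (0.46, 0.15 to 0.77), and in the other kept cells at 328 and 201. The deleted stretch of Runx3 is not given in the sources used here, so these 3′ counts do not check the labels.

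Among all genes compared, members of the lists included, the 10 genes with the largest ratios upward were Hspa1a, Hspa1b, Slpi, Egr1, Irf7, Fos, Cpne2, Dusp1, Xaf1 and Rapgef3. Slpi, a secreted protease inhibitor, stood at 51.1 and 963 CPM (4.21), with 24.2% of its UMIs in Runx3 from 1 cell. Downward they were Xist, Rfc4, Kif15, Iigp1, Cdca8, Npm3, Itgam, Ccdc34, Hist1h3c and Adam19. Adam19, a membrane protease, stood at 158 and 25.8 CPM (-2.57). In the other kept cells the log2 ratio was 0.54 for Slpi and -1.57 for Adam19, and in T-marker cells 1.66 and -1.91. Neutrophil markers (S100a8, S100a9, Csf3r, Retnlg and Cxcr2) summed to 55.3 CPM in plasma cells of Runx3_fl and 197 in those of Runx3, with Cxcr2 at 0 in Runx3, and to 464 and 9587 CPM in the other kept cells. At least 2 such UMIs were found in 1.54% and 80% of plasma cells, and their part in the results was not tested. Epithelial markers summed to 131 and 128 CPM, of which Epcam, a cell adhesion protein, made up 130 and 108.

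Xist, the RNA that coats the inactive X chromosome in female cells, set cells of Runx3_fl apart. It stood at 349 CPM in Runx3_fl and 2.50 in Runx3 (-6.64). With a limit of 2 UMIs of Xist and 2 UMIs summed over the Y-linked genes Ddx3y, Eif2s3y, Uty and Kdm5d, plasma cells of Runx3_fl fell into 116 with Xist only, 125 with Y-linked RNA only, 7 with both and 11 with neither. In Runx3 the numbers were 0, 55, 1 and 19. Xist and Y-linked RNA were thus found in separate cells of Runx3_fl. Of all kept cells of Runx3_fl, 22.6% held Xist only, 54.8% Y-linked RNA only and 19.1% neither. For its plasma cells these shares were 44.8%, 48.3% and 4.25%. In Runx3, 0% of all kept cells held Xist only and 59.6% Y-linked RNA only. These shares were not brought to equal depth, and plasma cells were the deeper ones. Among plasma cells of Runx3_fl, IgA made up 87.9% (80.6 to 93.2) of the Xist cells and 71.2% (62.4 to 78.9) of the Y-linked cells, and IgG 12.1% and 26.4%. The antibody share of UMIs was 15.0% in the Xist cells and 14.9% in the Y-linked cells of Runx3_fl, against 40.0% in the Y-linked cells of Runx3. Mki67 stood at 621, 549 and 139 CPM in these sets, and Fos at 125, 122 and 1593 CPM. In antibody share, Mki67 and Fos both sets of Runx3_fl were nearer to each other than to Runx3, whereas in IgA share the Xist cells lay between. With Y-linked cells alone in both libraries, the immediate early median was 2.58, the cell cycle median -1.68 and the difference in IgA share 25.2 percentage points.

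**Figure D5:**
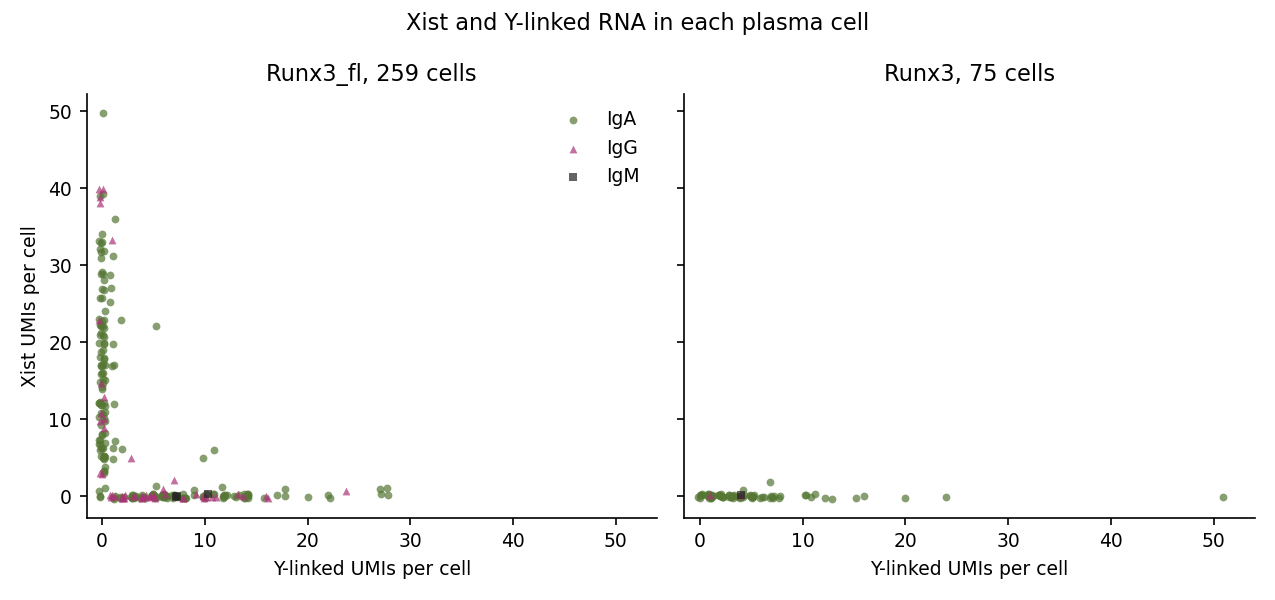
UMIs of 4 Y-linked genes (x axis) against UMIs of Xist (y axis) in each plasma cell of Runx3_fl (left, 259 cells) and Runx3 (right, 75 cells), with the heavy chain class by colour and shape and points spread by under 1 UMI to show overlaps. Runx3_fl holds 116 cells along the Xist axis and 125 along the Y-linked axis, and Runx3 none along the Xist axis.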

How the data were processed

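The deposited files hold whole UMI counts per gene and barcode, not normalized, of 32285 genes. According to the file headers they were made by Cell Ranger 7.1.0, and the submitters' processing notes name the mm10 build and Seurat 4. The authors filtered on genes and mitochondrial share and used the upper gene limit against doublets; the same limits were applied here and no doublet caller was run. Counts were summed over the plasma cells of each library and given per 1000000 UMIs outside 392 antibody genes (CPM). Jchain is not among these genes. Ratios have 1 CPM added. Intervals are exact (Clopper-Pearson for shares, Poisson for counts, conditional binomial for ratios), and those of list medians are medians of the members' bounds. Thinned shares are expected values at 5000 UMIs. Python 3.11.15, numpy 2.4.6, scipy 1.17.1 and pandas 2.3.3 were used. The ratio step was tested on simulated data for this comparison (3724 genes, 200 changed), where 99.5% of changed genes were called in their direction. The simulated sums held Poisson counting error only, without variation between cells, and the planted changes lay beyond the limit of 1. This checks the computation and does not show how reliable the calls are in these cells.

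The members and the gene lists were chosen with earlier results of these data known. Named genes were all list members and the 10 genes with the largest ratio in each direction and over other kept cells, leaving out antibody, mitochondrial and ribosomal protein genes. Coordinates are from GENCODE vM21 (GRCm38), and promoter sequences from RefSeq (GRCm38.p6). Alternatives were other marker limits, no cell filter, other scalings, pseudocounts and gene filters, and subsets of cells. Some list members are not reported here by name.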

Additional observations from a re-analysis of the deposited data

Results flagged for a closer look

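Bcl2l1 had a log2 ratio of Runx3 over Runx3_fl of 1.61 in plasma cells and of -1.47 in the other kept cells, opposite directions under the same comparison. The difference was not tested, and 1 cell held 28.2% of its UMIs in plasma cells of Runx3.

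Outside the cell filter, 13 barcodes of Runx3_fl and 2 of Runx3 met the plasma cell rule, all of them over 6000 genes. They entered no comparison above, and results with them are given with the processing alternatives.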

How the results depend on the processing

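No paired analysis was possible because each group is 1 library, and for the same reason no library was left out. Of 125 recomputed values, 95 stayed within the counting interval of the reported value, or within 1.5 times it for numbers of genes and for the effective number. The others follow, shares as differences in percentage points and lists as median log2 ratios, Runx3 against Runx3_fl, and the cause of the shifts was not tested unless stated.

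Leaving out plasma cells with 2 or more UMIs of markers of other cell types left 19 and 3 cells, too few to weigh: the share of kept cells differed by -0.12, lambda by 33.3, the antibody share by 29.6 and the effective number of Igkv genes by 0.045 (reported -10.6, so its sign turned), 1759 genes were higher and 1488 lower, and the heat shock, immediate early and cell cycle medians were 0.43, 3.12 and -2.56. The antibody share differed by 24.9 under looser marker limits, 26.0 under stricter ones and 24.0 with no cell filter, against 25.1 as reported.

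Per 1000000 of all UMIs, which lowers every gene outside the antibody genes by construction, 106 genes were higher and 1174 lower, and the ER folding, heat shock and immediate early medians were -0.54, 0.23 and 1.97. With the median gene set to 0, 275 genes were lower, and the ER folding and heat shock medians were 0.21 and 0.98. With all genes of at least 10 UMIs, 11633 in number, 1525 were higher and 1544 lower.

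Alternatives chosen after seeing the data used subsets of cells. In cells without an Mki67 UMI (44 and 48) the antibody share differed by 17.8 and the effective number by -1.88, the ER folding, heat shock and immediate early medians were -0.41, 1.19 and 2.03, and the cell cycle median turned to 0.22 with 4 genes left to compare. The IgA share differed by 25.2 with Y-linked cells alone and by 8.07 with the Xist cells of Runx3_fl alone, against 17.6 as reported. The 75 cells of Runx3 limit every share from that library, and for a class found in 0 of them the exact 95% upper limit is 4.80%.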
